A study of Mus musculus with 18 samples.

Results

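The experiment asked how far the lung's transcriptional response to inhaled ovalbumin differed between 2 inbred mouse strains, A/J, which is known for airways that react strongly to constricting agents, and C57BL/6, which is known for airways that react less. Its members were the 12 arrays of 4 groups of 3 mice, among 18 arrays in all, and the measure was the difference of differences, (A/J ovalbumin minus A/J PBS) minus (C57BL/6 ovalbumin minus C57BL/6 PBS), over all 45037 probe sets that are not Affymetrix controls. A probe set is a group of short probes for 1 transcript, and 18193 genes were represented by 1 probe set each. A positive strain difference means a larger rise, or a smaller fall, in A/J.

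All mice were males of 16 weeks and all were sensitized to ovalbumin, an egg protein, with weekly intraperitoneal injections of 100 µg in 37.5 µL of alum over 3 weeks, so the PBS groups are sensitized mice and not naive ones. The A/J PBS and C57BL/6 PBS groups then inhaled PBS alone, and the A/J ovalbumin and C57BL/6 ovalbumin groups inhaled 1% ovalbumin, for 30 min on each of 3 days starting 7 days after the last injection. The other 6 arrays came from mice of both strains that inhaled ovalbumin and also received resiquimod (S-28463, R-848), a synthetic compound that activates Toll-like receptor 7, at 100 µg per intraperitoneal injection. These 6 entered the estimate of the spread and are given as side values. RNA came from the whole lung, so fewer cells of a type and less RNA per cell cannot be told apart. The labels call the mice of a group biological replicates, name no supplier, and say C57BL/6 without a substrain.

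Inhaled allergen in a sensitized mouse calls in T helper 2 cells, eosinophils and monocytes. The cytokines interleukin-4 and interleukin-13 act through the transcription factor Stat6 to turn airway club cells into mucus-making goblet cells and macrophages into an alternatively activated state, in which they secrete chitinase-like and resistin-like proteins and chemokines. A strain can differ in the size of this response, in the level from which it starts, or in single genes that one genome can induce and the other cannot.

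Defining lung transcripts were high on every array. Surfactant protein C (Sftpc) lay between 13.7 and 13.9, the club cell secretoglobin Scgb1a1 between 13.7 and 13.9, and the ciliated cell factor Foxj1 between 6.26 and 6.99 on the log2 scale. Keratin and other squamous epithelium transcripts, which mark the lining of mouth and oesophagus, were high on 8 of the 18 arrays, with list means of 6.10 to 7.02 against 3.70 to 4.05 on the other 10. These were 1 A/J PBS, 2 A/J ovalbumin, 2 C57BL/6 PBS and 1 C57BL/6 ovalbumin array and 2 resiquimod arrays. Values rest on all arrays, and the main ones are also given without those 8, where A/J ovalbumin and C57BL/6 PBS keep 1 array each, assumed to vary like the other groups. The part of these transcripts in the results was not tested further.

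The strain difference in the response passed the test for 21 of 45037 probe sets (0.0466%), of which 14 were larger in A/J (0.0311%) and 7 smaller (0.0155%; limma's moderated test, Benjamini-Hochberg adjusted p under 0.05 over all probe sets). By gene it passed for 11 of 18193 (0.0605%), 8 larger (0.044%) and 3 smaller (0.0165%). A further gene, Nrp1, was called through a probe set that does not represent it, and 5 called probe sets name several genes or none. At an unadjusted p under 0.05 there were 2467 probe sets (5.48%), 1013 larger and 1454 smaller in A/J. The median strain difference over all genes was -0.01. In the same fit ovalbumin itself changed 1419 probe sets in A/J (3.15%) and 478 in C57BL/6 (1.06%), and these counts do not test a difference between strains. The A/J count was 680 without ovalbumin array 3, 860 without ovalbumin array 1, and 854, 802 and 806 without PBS array 1, 2 or 3. The C57BL/6 count was 260 and 307 without ovalbumin array 2 or 3 and 298 without PBS array 1. When the 8 arrays with squamous transcripts were left out the strain difference was called for 3 probe sets, 2 of them among the 21. The standard error of the strain difference had a median of 0.13 on the log2 scale, and the smallest called difference was 0.69.

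**Figure D1:**
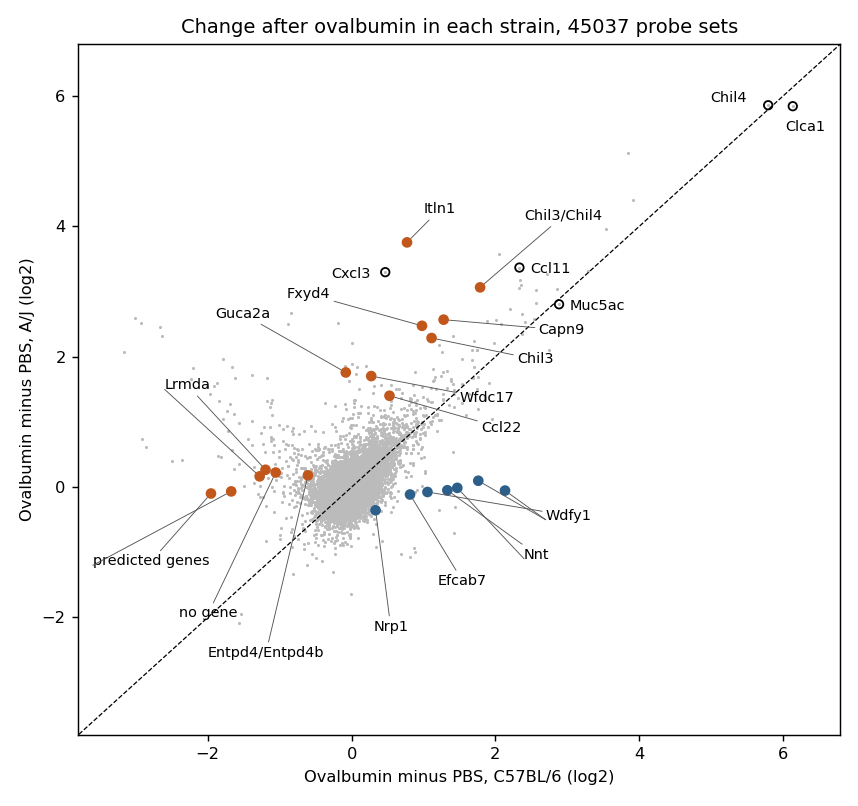
Change after ovalbumin in C57BL/6 (horizontal axis) and in A/J (vertical axis), both log2 differences of group means of 3 arrays, for 45037 probe sets (grey). Filled points are the 21 called for the strain difference, orange where larger and blue where smaller in A/J, open circles are 5 genes of the allergic response that were not called, and the dashed line marks equal change. Itln1 lies at 3.76 in A/J and 0.77 in C57BL/6, while Clca1 lies near the line at 5.85 and 6.14.

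The 21 probe sets followed a few patterns, which depend on which group stood apart, meaning that its 3 arrays all lay above or all below the other 9 of the 12. The A/J ovalbumin group stood apart for 6 of the 21, always above. The A/J PBS group stood apart for 6, below for 5 of them. The C57BL/6 PBS group stood apart for 12, below for 8 and above for 4, and the C57BL/6 ovalbumin group for 2, both below. A probe set can fall under more than 1 of these. Over all probe sets these shares were 4.74%, 4.34%, 3.08% and 2.42%. In all 21 the 9 differences between an ovalbumin and a PBS array of A/J also lay wholly above or wholly below the 9 of C57BL/6, where 2.43% of all probe sets did so. The called probe sets were chosen by a contrast of the same values, so these counts describe them and test nothing.

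The promoters of 4 genes with a larger response in A/J are shown because a Stat dimer reads short palindromes there, TTCNNNNGAA for Stat6 and TTCNNNGAA for Stat factors in general. They are the 250 bases before the start of the gene, 5′ to 3′ along the gene, from RefSeq on build GRCm38.p6, with a matched palindrome in capitals. That build is the C57BL/6J genome, and A/J sequence was not used here.
Itln1, chr1:171535295-171535544, minus strand: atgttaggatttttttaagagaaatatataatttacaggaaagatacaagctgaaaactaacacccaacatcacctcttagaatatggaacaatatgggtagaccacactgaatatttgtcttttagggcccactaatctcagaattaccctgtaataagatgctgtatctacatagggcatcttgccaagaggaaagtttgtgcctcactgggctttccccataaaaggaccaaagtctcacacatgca
Guca2a, chr4:119637482-119637731, plus strand: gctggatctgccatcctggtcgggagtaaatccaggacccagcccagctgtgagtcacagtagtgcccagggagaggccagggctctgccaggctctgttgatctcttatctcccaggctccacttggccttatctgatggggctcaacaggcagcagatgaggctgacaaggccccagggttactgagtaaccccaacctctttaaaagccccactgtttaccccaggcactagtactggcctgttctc
Capn9, chr8:124575861-124576110, plus strand: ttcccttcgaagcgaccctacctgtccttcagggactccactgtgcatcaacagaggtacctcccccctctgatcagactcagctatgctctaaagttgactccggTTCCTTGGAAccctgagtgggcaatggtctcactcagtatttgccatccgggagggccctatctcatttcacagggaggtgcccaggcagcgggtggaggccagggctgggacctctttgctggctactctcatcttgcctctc
Chil3, chr3:106167565-106167814, minus strand: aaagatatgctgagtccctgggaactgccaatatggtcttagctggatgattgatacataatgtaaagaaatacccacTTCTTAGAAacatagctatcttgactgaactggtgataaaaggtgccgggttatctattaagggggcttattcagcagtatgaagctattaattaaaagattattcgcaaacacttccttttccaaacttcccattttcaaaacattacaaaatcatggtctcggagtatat

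Both palindromes read the same on either strand, and they do not overlap in these windows. Capn9 held the first, TTCCTTGGAA, beginning 144 bases before the start, and Chil3 held the second, TTCTTAGAA, 172 bases before it. Of 12 called genes 9 had a promoter entry, and 2 of the 9 held a palindrome. Of 32851 RefSeq promoters cut to the same length, 5.85% held the first, 7.02% the second and 12.4% at least one. A match describes the letters of this window only.

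Itln1, which encodes intelectin-1, a lectin of goblet cells and other secretory epithelium that binds microbial sugars, had the largest called strain difference. In A/J it was at 5.68, 6.01 and 5.49 with PBS and at 9.65, 9.29 and 9.52 with ovalbumin. In C57BL/6 it was at 3.80, 3.80 and 3.83 with PBS and at 4.55, 4.36 and 4.84 with ovalbumin. Every A/J array was above every C57BL/6 array, and the A/J ovalbumin arrays were above all others. It rose by 3.76 ± 0.20 (SE, n = 3 per group) in A/J, a 13.5-fold change (adjusted p = 1.8e-08), while the change of 0.77 ± 0.20 in C57BL/6 did not pass (adjusted p = 0.097). The strain difference in the response was 2.98 (95% interval 2.37 to 3.60, 7.91-fold, adjusted p = 0.00013). Leaving out the 8 squamous arrays gave 2.74, with an adjusted p of 0.58.

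The strains already differed in Itln1 before allergen, by 1.92 in the PBS groups (3.78-fold, adjusted p = 5.8e-06), and after ovalbumin they differed by 4.90 (29.9-fold, adjusted p = 4e-11). The resiquimod arrays lay at 6.72, 6.08 and 7.09 in A/J and at 4.25, 4.31 and 3.87 in C57BL/6. The C57BL/6 values were weak signals, above the 25th percentile of all values, 3.33, and below the median, 4.78, except for 4.84 on 1 ovalbumin array. Mouse strains are known to carry different numbers of intelectin genes, and a single probe set cannot tell close copies apart.

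Guca2a encodes guanylin, a peptide that opens chloride secretion through guanylate cyclase C and is best known from intestinal goblet cells. It was at 4.28, 4.25 and 4.79 with PBS and at 6.11, 6.21 and 6.27 with ovalbumin in A/J. In C57BL/6 it was at 3.98, 4.44 and 3.99 with PBS and at 4.09, 4.17 and 3.91 with ovalbumin. The A/J ovalbumin arrays stood above the other 15, and the A/J PBS arrays lay above the C57BL/6 ovalbumin arrays. It rose by 1.76 ± 0.15 in A/J (3.39-fold, adjusted p = 2e-06), and the change in C57BL/6 was -0.08 ± 0.15 (adjusted p = 0.91). The strain difference was 1.84 (1.40 to 2.28, adjusted p = 0.00058). It was 2.09 without the 8 arrays (adjusted p = 0.29).

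Unlike Itln1, Guca2a did not pass for a difference between the strains with PBS, at 0.30 (adjusted p = 0.28). With resiquimod it lay between 3.96 and 4.39 in A/J, below the 3 A/J arrays with ovalbumin alone.

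Fxyd4, a small membrane protein that adjusts the sodium pump, and Capn9, a calcium-dependent protease of the gut and stomach lining, rose in both strains and more in A/J. Fxyd4 was at 4.81, 4.68 and 4.81 with PBS and 7.33, 6.97 and 7.42 with ovalbumin in A/J, and at 4.91, 4.90 and 4.78 with PBS and 5.27, 6.26 and 6.00 with ovalbumin in C57BL/6. It rose by 2.48 ± 0.18 in A/J and by 0.98 ± 0.18 in C57BL/6 (adjusted p = 0.0086), a strain difference of 1.50 (0.96 to 2.03, adjusted p = 0.042). All 3 ovalbumin arrays of each strain were above their PBS arrays, and the C57BL/6 ones were the more scattered.

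Capn9 was at 3.13, 3.06 and 3.43 with PBS and 5.83, 5.59 and 5.90 with ovalbumin in A/J. In C57BL/6 it was at 3.31, 3.41 and 3.13 with PBS and 4.48, 4.59 and 4.63 with ovalbumin. Both PBS groups were weak, close to the 25th percentile of the array values, and overlapped, and the ovalbumin groups did not overlap. It rose by 2.57 ± 0.15 in A/J and by 1.28 ± 0.15 in C57BL/6, a strain difference of 1.29 (0.83 to 1.75, adjusted p = 0.042). Refitting without each of the 18 arrays in turn ended the call of Fxyd4 14 times and that of Capn9 13 times, with differences of 1.21 to 1.71 and 1.22 to 1.40 and a largest adjusted p of 0.16 for either. Fxyd4 stayed called without A/J ovalbumin array 2, C57BL/6 ovalbumin array 1 or 2, or A/J resiquimod array 3. Capn9 stayed called without array 3 of either PBS group, A/J ovalbumin array 2, or A/J resiquimod array 1 or 3. The 12 arrays alone ended the call of Fxyd4 and the squamous list mean as a covariate that of Capn9. The strain difference without the 8 arrays was 1.00 for Fxyd4 and 1.16 for Capn9, with an adjusted p of 0.62 for each.

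Wfdc17, a small protease inhibitor secreted by macrophages and neutrophils, was at 7.19, 7.03 and 7.02 with PBS and 8.84, 8.56 and 8.95 with ovalbumin in A/J. In C57BL/6 it was at 7.61, 7.50 and 7.74 with PBS and 8.01, 7.85 and 7.82 with ovalbumin. A/J began lower than C57BL/6 and ended higher, with no overlap at either point. It rose by 1.70 ± 0.12 in A/J (adjusted p = 2e-07), against a change of 0.27 ± 0.12 in C57BL/6 (adjusted p = 0.40), and the strain difference was 1.43 (1.08 to 1.78, adjusted p = 0.00062). It was 1.20 without the 8 arrays (adjusted p = 0.41). With resiquimod Wfdc17 was higher than with ovalbumin alone in both strains, at 9.35 to 9.75 in A/J and 9.02 to 9.24 in C57BL/6.

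The ovalbumin groups of the strains alone give a description of these 5 genes and no further test, since the same 6 arrays entered the contrast that chose them. The differences between those groups were 4.90 for Itln1, 2.14 for Guca2a, 1.40 for Fxyd4, 1.21 for Capn9 and 0.89 for Wfdc17, each called, where 8.85% of all probe sets were.

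**Figure D2:**
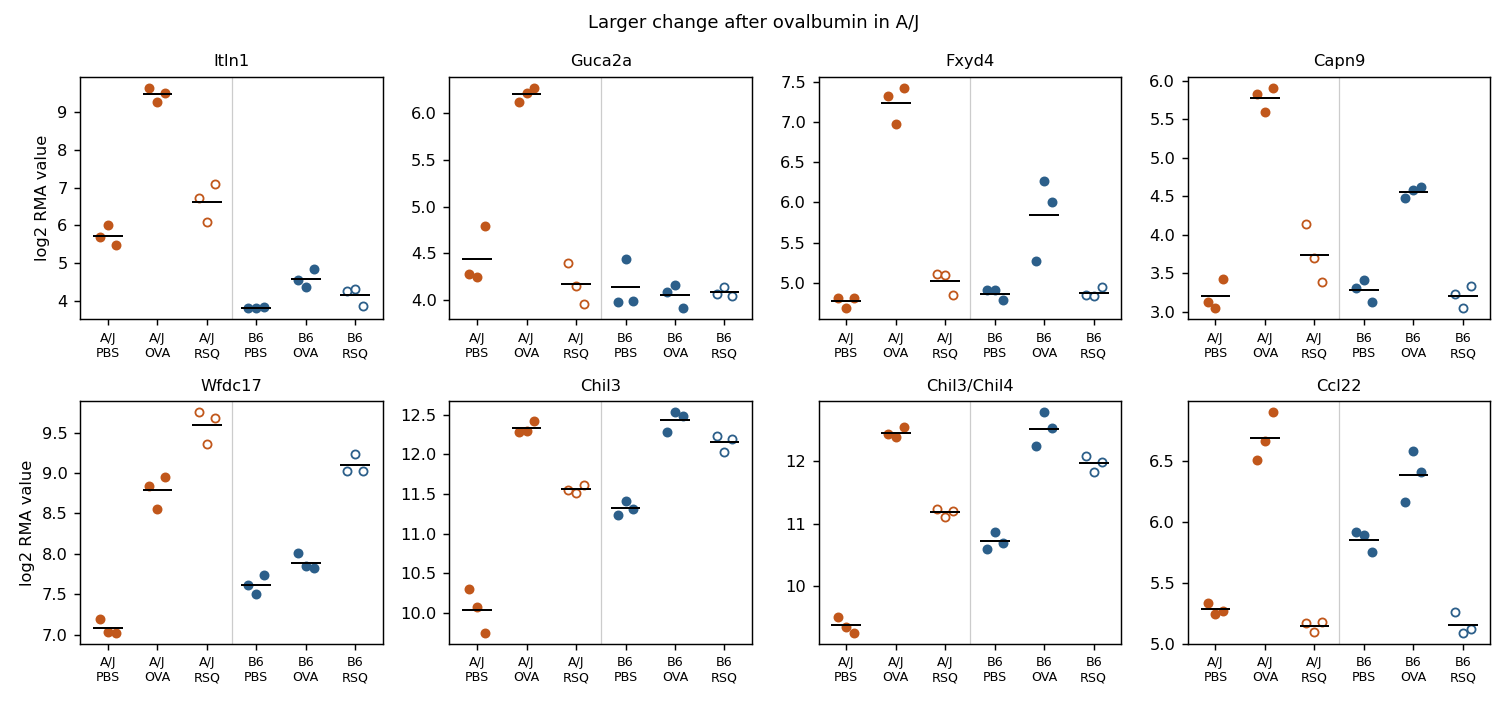
Log2 RMA values of 8 probe sets with a larger change in A/J, 1 point per array and a bar at the mean of 3, with A/J in orange, C57BL/6 (B6) in blue and resiquimod with ovalbumin (RSQ) as open points; each vertical axis has its own range and does not start at 0. For Itln1, Guca2a, Fxyd4 and Capn9 the A/J ovalbumin arrays are the highest, while for Chil3 the A/J PBS arrays are the lowest and the 2 ovalbumin groups overlap.

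Chil3 and Ccl22 showed another pattern, in which the A/J PBS lungs were low and the strains met after ovalbumin. Chil3 encodes Ym1, a chitinase-like protein that alternatively activated macrophages secrete in large amounts. It was at 10.30, 10.07 and 9.75 with PBS and 12.28, 12.29 and 12.42 with ovalbumin in A/J. In C57BL/6 it was at 11.24, 11.41 and 11.30 with PBS and 12.28, 12.53 and 12.48 with ovalbumin. The A/J PBS arrays were below all 15 others, and the ovalbumin groups of the 2 strains overlapped.

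Chil3 rose by 2.29 ± 0.11 in A/J (4.88-fold) and by 1.11 ± 0.11 in C57BL/6 (2.16-fold), a strain difference of 1.18 (0.84 to 1.51, adjusted p = 0.0039). It was 1.29 without the 8 arrays (adjusted p = 0.35). The strains differed by -1.28 with PBS (adjusted p = 5.2e-07) and by -0.10 with ovalbumin (adjusted p = 0.70). A probe set shared by Chil3 and its neighbour Chil4, which encodes Ym2, had a strain difference of 1.28 (0.93 to 1.62, adjusted p = 0.0026). It was 1.29 without the 8 arrays (adjusted p = 0.29). It too was lowest in A/J PBS, at 9.26 to 9.52. The probe set of Chil4 alone was not called, at 0.07, and 95% intervals of -1.14 to 1.27 leave room for a difference as large as that of Chil3, and without the 8 squamous arrays it turned to -0.67. These paralogs are close in sequence, and the shared probe set cannot say which transcript it measured.

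Ccl22 is a chemokine of macrophages and dendritic cells that attracts T helper 2 cells through the receptor Ccr4. It was at 5.33, 5.25 and 5.27 with PBS and 6.50, 6.66 and 6.89 with ovalbumin in A/J, and at 5.92, 5.89 and 5.75 with PBS and 6.16, 6.57 and 6.41 with ovalbumin in C57BL/6. The A/J PBS arrays were the lowest of the 12, and the ovalbumin groups overlapped. It rose by 1.40 ± 0.10 in A/J and 0.53 ± 0.10 in C57BL/6, a strain difference of 0.87 (0.57 to 1.18, adjusted p = 0.042). Refitting without each of the 18 arrays ended the call 15 times, with differences of 0.76 to 0.97 and adjusted p up to 0.15, and it stayed without A/J ovalbumin array 1, C57BL/6 PBS array 3 or C57BL/6 ovalbumin array 2. The 12 arrays alone ended it too, and the difference was 0.80 without the 8 arrays (adjusted p = 0.61).

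In 12 of the 21 called probe sets the C57BL/6 PBS arrays stood apart from all 15 others, the resiquimod arrays of both strains included, where 1.71% of all probe sets had that pattern. Itln1 and the called Nrp1 probe set are among these 12. For Itln1 the margin was narrow, with C57BL/6 PBS at 3.80 to 3.83 and the lowest other array, C57BL/6 resiquimod, at 3.87. Nnt encodes the mitochondrial transhydrogenase that makes NADPH, and the substrain C57BL/6J is known to carry a deletion in it that other C57BL/6 substrains lack. It was at 7.04, 7.27 and 6.90 in the C57BL/6 PBS arrays and at 8.45, 8.35 and 8.40 in the C57BL/6 ovalbumin arrays. In A/J it was at 8.52, 8.39 and 8.48 with PBS and 8.51, 8.36 and 8.39 with ovalbumin. The C57BL/6 PBS arrays were the only low ones, and the C57BL/6 resiquimod arrays lay at 8.27 to 8.41 with the rest.

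The change in Nnt was 1.33 ± 0.093 in C57BL/6 (2.52-fold, adjusted p = 5.4e-07) and -0.05 ± 0.093 in A/J, a strain difference of -1.38 (-1.66 to -1.10, adjusted p = 0.00013). It was -1.19 without the 8 arrays (adjusted p = 0.29). A second Nnt probe set gave -1.48 (adjusted p = 4.2e-05), and the third was weak in every group, close to the 25th percentile of the array values, and gave 0.05.

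Wdfy1, an endosomal adaptor of Toll-like receptor 3 signalling, had the most extreme negative difference. The probe set with that difference was at 4.49, 4.11 and 4.18 in the C57BL/6 PBS arrays and at 6.29, 6.58 and 6.32 with ovalbumin. In A/J it was at 6.42, 6.38 and 6.41 with PBS and 6.38, 6.42 and 6.24 with ovalbumin. As for Nnt, the C57BL/6 PBS arrays alone were low. The strain difference was -2.19 (-2.49 to -1.89, adjusted p = 1.8e-06), and it stayed called without the 8 arrays, at -2.32 (adjusted p = 0.042). Of 5 Wdfy1 probe sets 3 were called, the other called ones at -1.66 and -1.13. Those not called gave -0.16 and, in a probe set among the weakest values, 0.19.

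Efcab7, an EF-hand protein of the primary cilium base that takes part in Hedgehog signalling, was at 4.25, 4.56 and 4.32 in the C57BL/6 PBS arrays and between 4.91 and 5.40 on the other 15. Its strain difference was -0.93 (-1.20 to -0.65, adjusted p = 0.0058). It was -0.85 without the 8 arrays (adjusted p = 0.62).

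Another 4 probe sets, which name several genes or none, were the reverse, with C57BL/6 PBS above all other arrays. A probe set shared by Entpd4 and Entpd4b, which encode nucleotide-cleaving enzymes of internal membranes, was at 8.59, 8.71 and 8.67 there and between 7.79 and 8.17 elsewhere, a strain difference of 0.79 (adjusted p = 0.0048). A pair of probe sets, each annotated to several predicted genes and sharing some of them, were at 6.61 to 7.13 and at 5.12 to 5.60 in C57BL/6 PBS, with strain differences of 1.86 and 1.61. A probe set with no gene in the annotation had a difference of 1.28, and refitting without each of the 18 arrays ended its call 17 times, with differences of 1.11 to 1.54 and adjusted p up to 0.16. These 4 differences were 0.75, 2.03, 1.89 and 0.74 without the 8 arrays, and of them only the 1.89, in the weaker of the pair, was called.

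In Efcab7, the Entpd4 probe set and the Nnt and Wdfy1 probe sets with values given by array, the ovalbumin and resiquimod arrays of C57BL/6 overlapped. In another called Wdfy1 probe set they did not, at 6.55 to 6.70 with ovalbumin and 6.82 to 7.05 with resiquimod. With ovalbumin the strains differed by 0.02 in Nnt (adjusted p = 0.96), by -0.05 in the Wdfy1 probe set with the most extreme difference (adjusted p = 0.86), by -0.08 in Efcab7 (adjusted p = 0.73) and by -0.01 in the Entpd4 probe set (adjusted p = 0.97). A list of genes known to carry variants that differ between C57BL/6 substrains had 8 of 11 members measured. Of the 8, 2 were called, Nnt and Wdfy1, both smaller in A/J, where 0.0605% of all genes were called. The list was chosen with earlier results of these data known, so this count describes it and tests nothing. The median over the list was -0.11, against -0.01 over all genes. Of the members not called, the insulin-degrading enzyme Ide was at 0.59, the guanine nucleotide exchange factor Dock2 at 0.75 and multimerin Mmrn1 at -0.36. Whether the C57BL/6 PBS mice came from the same substrain as the other C57BL/6 mice was not tested, and origin and treatment cannot be told apart in that group. Every strain difference in the response uses these 3 arrays.

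**Figure D3:**
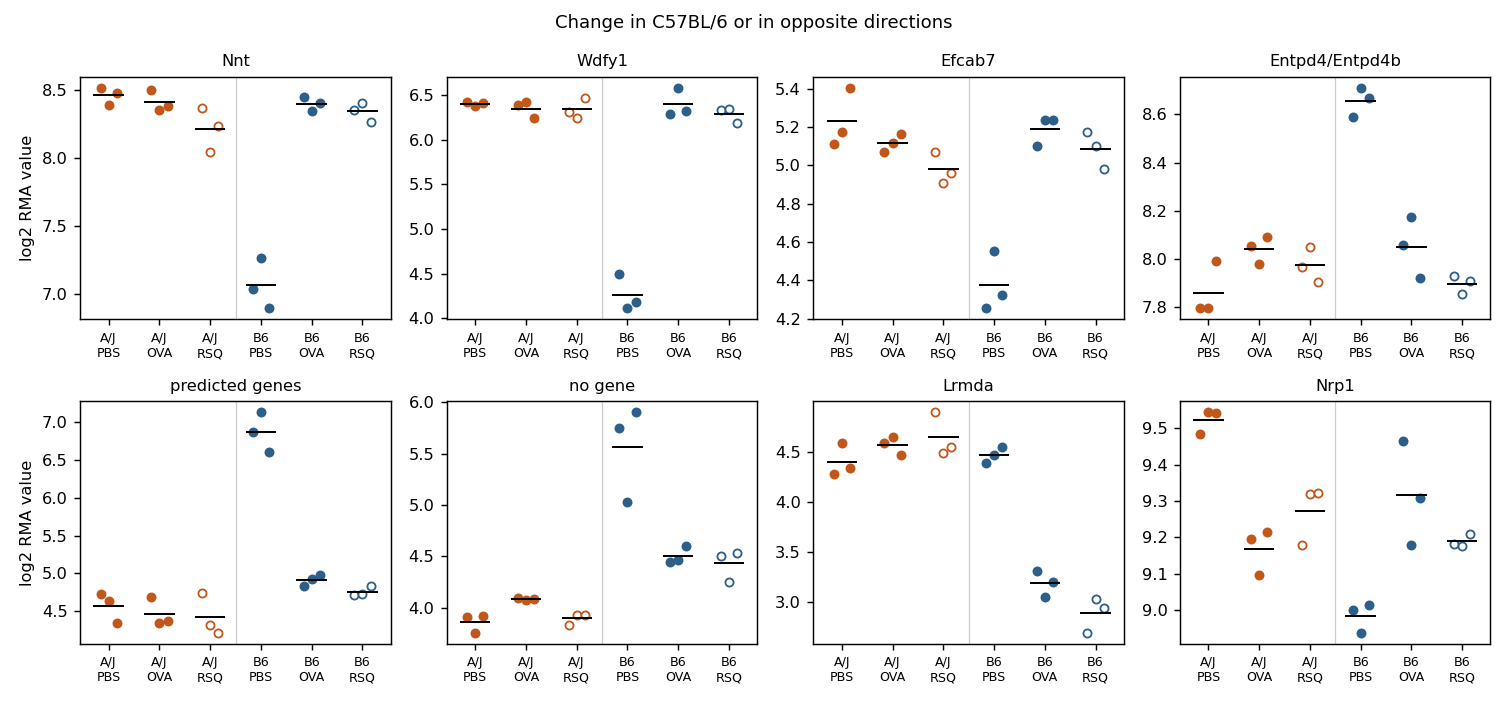
Log2 RMA values of 8 probe sets whose called strain difference came with a change in C57BL/6 or with changes in opposite directions, drawn as 1 point per array with a bar at the mean of 3, A/J in orange, C57BL/6 (B6) in blue and resiquimod with ovalbumin (RSQ) as open points; each vertical axis has its own range and does not start at 0, and of several called probe sets the smaller difference is drawn for Nnt and Lrmda and the larger for the others. In Nnt, Wdfy1 and Efcab7 the C57BL/6 PBS arrays are the lowest and in Entpd4/Entpd4b, the predicted genes and the set with no gene the highest of all 18, while Lrmda is low in C57BL/6 ovalbumin and resiquimod arrays.

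Lrmda, a leucine-rich repeat gene tied to melanocyte differentiation, was called for a fall in C57BL/6 beside no call in A/J. A probe set of the gene was at 4.39, 4.46 and 4.54 with PBS and 3.31, 3.05 and 3.20 with ovalbumin in C57BL/6, and at 4.28, 4.58 and 4.34 with PBS and 4.58, 4.65 and 4.46 with ovalbumin in A/J. The C57BL/6 resiquimod arrays were lower still, at 2.69 to 3.03, while those of A/J were at 4.49 to 4.89. Lrmda fell by 1.28 ± 0.12 in C57BL/6 (adjusted p = 8.2e-06), and the change in A/J was 0.17 ± 0.12 (adjusted p = 0.57). The strain difference was 1.44 (1.10 to 1.79, adjusted p = 0.00058), and 1.53 without the 8 arrays (adjusted p = 0.29). The probe set that represents the gene gave 1.46 (adjusted p = 0.015). Its adjusted p was 0.064 and 0.070 without A/J PBS array 1 or A/J ovalbumin array 3, and 0.057 and 0.056 without C57BL/6 PBS array 1 or 2. The third probe set, among the weakest values, gave -0.06. In Lrmda the C57BL/6 PBS arrays were level with A/J, and the other 6 C57BL/6 arrays were low. In the probe set given by array those 6 lay below the 25th percentile of all values, 3.33. Here too origin and treatment of the C57BL/6 PBS group cannot be told apart.

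Nrp1 encodes neuropilin-1, a receptor for semaphorins and vascular growth factor on endothelium and some T cells. In the called probe set it was at 9.49, 9.54 and 9.54 with PBS and 9.20, 9.10 and 9.22 with ovalbumin in A/J. In C57BL/6 it was at 9.00, 8.94 and 9.01 with PBS and 9.46, 9.18 and 9.31 with ovalbumin. It fell by 0.36 ± 0.072 in A/J (adjusted p = 0.010) and rose by 0.33 ± 0.072 in C57BL/6 (adjusted p = 0.030), a strain difference of -0.69 (-0.90 to -0.47, adjusted p = 0.011). It was -0.75 without the 8 arrays (adjusted p = 0.57). The 12 arrays alone also ended the call. The PBS groups lay at the 2 ends of the 18 arrays, A/J highest and C57BL/6 lowest. The other 3 Nrp1 probe sets were not called, at -0.07, -0.23 and -0.16.

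The core mucus genes changed strongly in both strains and were not called for a difference. Clca1, a secreted regulator of goblet cell chloride conductance, rose by 5.85 ± 0.48 in A/J and by 6.14 ± 0.48 in C57BL/6, with ovalbumin values of 12.83 to 12.95 and 12.56 to 12.68. The difference of -0.29 had a 95% interval of -1.73 to 1.14, which leaves a difference of more than 2-fold possible either way. One A/J PBS array, at 8.43, was above the others of its group, at 5.97 and 6.72, and without it the difference was 0.40. Muc5ac, the gel-forming mucin induced in goblet cells, rose by 2.81 ± 0.24 and 2.89 ± 0.24, with a difference of -0.08 (-0.80 to 0.64). Agr2, a disulfide isomerase that folds mucins, rose by 3.31 and 3.29, with a difference of 0.03 (-0.83 to 0.89) that turned to -0.52 without the 8 squamous arrays.

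In the list of mucus and goblet cell genes 23 of 23 were measured. Of these 2, Itln1 and Guca2a, were called larger in A/J, where 0.044% of all genes were. Ovalbumin raised 14 of the 23 in A/J and 10 in C57BL/6 (3.2% and 1.44% of all genes), and the median strain difference was 0.11, or 0.040 without the squamous arrays. The 16 values above 0 included the transcription factor Spdef at 0.52, which directs goblet cell fate, and the glucose transporter Slc5a1 at 0.92, neither called. Tff1, a trefoil peptide, was chosen for mention after its values were seen. It changed by 1.63 in A/J and -0.04 in C57BL/6, neither called, a difference of 1.67 (adjusted p = 0.95) that passed in the fit of the 12 arrays alone (adjusted p = 0.00012).

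The chitinase and resistin-like list had 8 of 9 members measured, all with a strain difference above 0, where 47.6% of all genes were. Only Chil3 was called, where 0.0605% of all genes were, and the median was 0.49. With the 8 squamous arrays left out 4 of the 8 were above 0, with a median of 0.12, where 43.1% of all genes were above 0. Retnla, a resistin-like protein of macrophages and epithelium, rose by 3.28 ± 0.13 in A/J and 2.72 ± 0.13 in C57BL/6, a difference of 0.56 (0.17 to 0.95) that did not pass over all probe sets (adjusted p = 0.70). The alternatively activated macrophage list had 15 of 19 values above 0, 1 call (Chil3 again) and a median of 0.31, and 12 of 19 and 0.27 without those arrays. Its largest value was that of Cd209e, a C-type lectin related to DC-SIGN, at 1.53 ± 0.30 (adjusted p = 0.11). Cd209e lay between 2.47 and 3.19 with PBS and between 6.28 and 6.70 with ovalbumin in A/J. In C57BL/6 it lay between 2.78 and 2.98 with PBS and between 4.41 and 5.50 with ovalbumin, so the ovalbumin groups did not overlap.

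No eosinophil gene was called. Of 12 measured members of 15, 11 had a strain difference above 0, and the median was 0.38, against 9 and 0.27 without the squamous arrays. Ovalbumin raised 7 of the 12 in A/J and 2 in C57BL/6, where it raised 3.2% and 1.44% of all genes. These counts do not test a difference between strains. Prg2, the major basic protein of eosinophil granules, was at 3.13, 3.04 and 3.00 with PBS and 4.13, 4.19 and 4.28 with ovalbumin in A/J, and at 3.25, 3.22 and 3.20 with PBS and 2.91, 3.70 and 3.34 with ovalbumin in C57BL/6. The A/J ovalbumin arrays were the highest of the 12, and the C57BL/6 ovalbumin arrays straddled their PBS arrays. These were weak signals, all below the median of all values, 4.78, and outside A/J ovalbumin close to the 25th percentile, 3.33. Its difference was 1.05 ± 0.21 (adjusted p = 0.13), and it passed with trend and robust eBayes (adjusted p = 0.040). Rnase2a, an eosinophil-associated ribonuclease that macrophages can also make, rose by 5.12 ± 0.38 in A/J and 3.84 ± 0.38 in C57BL/6, with a difference of 1.28 (0.15 to 2.40, adjusted p = 0.87).

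The list of chemokines for eosinophils and type 2 cells had 10 of 10 measured, 8 above 0, a median of 0.48 and 1 call, Ccl22. Over all genes 0.0605% were called. Ovalbumin raised 9 of the 10 in either strain, where it raised 3.2% of all genes in A/J and 1.44% in C57BL/6. Ccl11, eotaxin-1, lay between 5.01 and 5.39 with PBS and between 8.40 and 8.68 with ovalbumin in A/J. In C57BL/6 it lay between 4.78 and 4.89 with PBS and between 6.79 and 7.59 with ovalbumin. The ovalbumin groups did not overlap, and the difference of 1.03 (0.38 to 1.69) did not pass (adjusted p = 0.66). Ccl24, eotaxin-2, had a difference of 0.66 (0.20 to 1.12, adjusted p = 0.71). The cytokines themselves were among the weaker signals, with group means of 3.51 to 3.94 for Il13, and had strain differences of 0.21 (-0.12 to 0.54) for Il13, 0.13 (-0.21 to 0.46) for Il4 and 0.07 (-0.19 to 0.33) for Il5. The list of type 2 cytokines and receptors had no call among 19, with 12 above 0 and a median of 0.07, or 0.0043 without the squamous arrays. The epithelial alarmin Il33 rose by 1.30 in A/J and 0.83 in C57BL/6, a difference of 0.47 (-0.05 to 1.00). Without the 8 squamous arrays the differences of Il33, Il4 and Il5 turned to -0.067, -0.069 and -0.088.

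**Figure D4:**
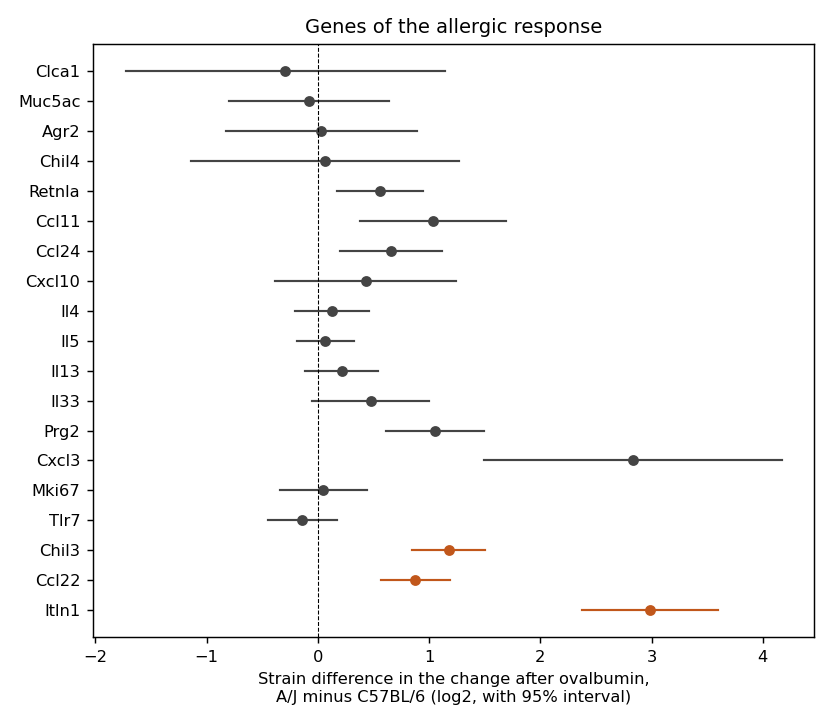
Strain difference in the change after ovalbumin, A/J minus C57BL/6, on the log2 scale with 95% intervals for 19 genes of the allergic response, 3 arrays per group; orange marks the called genes. Intervals of Clca1 and Chil4 span 0 widely, while those of Chil3, Ccl22 and Itln1 lie above it.

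Cxcl3, a chemokine for neutrophils, had the largest difference of the genes in the chemokine lists and missed the threshold. It was at 2.46, 2.45 and 2.38 with PBS and 5.33, 6.22 and 5.63 with ovalbumin in A/J, and at 2.65, 2.47 and 2.34 with PBS and 2.69, 3.13 and 3.06 with ovalbumin in C57BL/6. The A/J ovalbumin arrays were above the other 9, and the C57BL/6 ovalbumin arrays stayed among the weakest values of the array. Cxcl3 rose by 3.30 ± 0.45 in A/J (adjusted p = 0.00034), against 0.47 ± 0.45 in C57BL/6 (adjusted p = 0.79). The strain difference was 2.83 (1.49 to 4.17, adjusted p = 0.25). The most scattered group was A/J resiquimod, at 6.88, 9.25 and 6.83. With the 12 arrays alone the adjusted p was 0.00082, and 0.25 is the value with all 18. Neutrophil genes as a list had no call among 15 and a median of -0.11, with 7 above 0.

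Interferon-stimulated genes are switched on by type I and type II interferon. Of 30 measured, 5 had a difference above 0 (16.7%, against 47.6% of all genes), none was called, and the median was -0.19. Without the squamous arrays 11 were above 0 (36.7%, against 43.1% of all genes) and the median was -0.10. Ifit3, an antiviral tetratricopeptide protein, was at 8.66, 8.73 and 8.84 with PBS and 8.33, 8.44 and 8.39 with ovalbumin in A/J, and at 8.87, 9.01 and 8.96 with PBS and 9.04, 8.99 and 9.36 with ovalbumin in C57BL/6. It fell by 0.36 in A/J and changed by 0.19 in C57BL/6 (adjusted p = 0.45), a difference of -0.54 (-0.80 to -0.29, adjusted p = 0.24). Exceptions were the chemokine Cxcl10 at 0.43 and Mx1 at 0.47. The receptor of resiquimod, Tlr7, had a difference of -0.14 (-0.45 to 0.17).

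Genes of MHC class I processing (2 of 12 above 0, median -0.14) and of peroxisomes and lipid oxidation (2 of 12, median -0.20) had no call. Both lists had 5 of 12 above 0 (41.7%) without the squamous arrays, near the 43.1% of all genes, with medians of -0.018 and -0.11. In the latter Acoxl, an acyl-CoA oxidase-like gene of alveolar type 2 cells, fell by 0.93 ± 0.093 in A/J (adjusted p = 1.5e-05), against -0.23 in C57BL/6 (adjusted p = 0.37), a difference of -0.70 (-0.98 to -0.42, adjusted p = 0.091). Acoxl passed with the 12 arrays alone (adjusted p = 0.040) and with trend and robust eBayes (adjusted p = 0.016).

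Ovalbumin raised cell cycle genes in both strains. Of 39 measured it raised 29 in A/J and 27 in C57BL/6, against 3.2% and 1.44% of all genes. The strain differences had 19 above 0 and a median of -0.01. Mki67, a marker of dividing cells, rose by 1.58 ± 0.13 and 1.53 ± 0.13, a difference of 0.05 (-0.34 to 0.44). Without the 8 squamous arrays that of Mki67 turned to -0.28, and the list had 7 of 39 above 0 and a median of -0.26. T cell genes (8 of 18 above 0, median -0.02), ciliated cell genes (4 of 20, median -0.04) and mast cell and basophil genes (8 of 14, median 0.04) had no call. Without the squamous arrays these were 6, 8 and 6 above 0, with medians of -0.077, -0.031 and -0.040. With cyclic loess the cell cycle and T cell medians were 0.0010 and 0.0097.

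Matrix genes had 18 of 23 above 0, a median of 0.15 and no call. Ovalbumin raised 6 of them in A/J and 1 in C57BL/6, against 3.2% and 1.44% of all genes. Among the 6 was the fibrillar collagen Col1a1, with only the A/J change called. It changed by 0.90 in A/J and 0.30 in C57BL/6, a difference of 0.60. Another Col1a1 probe set was not called, at 0.93, but passed with trend and robust eBayes (adjusted p = 0.010) and with array weights (adjusted p = 0.031). The largest interactions of any named gene belonged to tissues that a dissected lung can carry along. Krt13, a keratin of squamous epithelium, had a difference of 5.44 with a 95% interval of -3.87 to 14.75, and its arrays fell into high ones, at 10.68 to 11.93, and low ones, at 3.21 to 4.30, within the same groups. Skeletal muscle genes were above 0 in 15 of 15, with a median of 1.68 and a median SE of 1.95, and no call, and without the squamous arrays 1 of 15 was above 0 and the median was -0.78. Their list means ran from 4.40 to 7.95 in the A/J PBS arrays and from 4.33 to 9.13 in the A/J ovalbumin arrays. Without the squamous arrays A/J PBS array 3, at 7.47, stayed in, beside 4.11 to 4.89 on the other PBS and ovalbumin arrays kept.

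**Figure D5:**
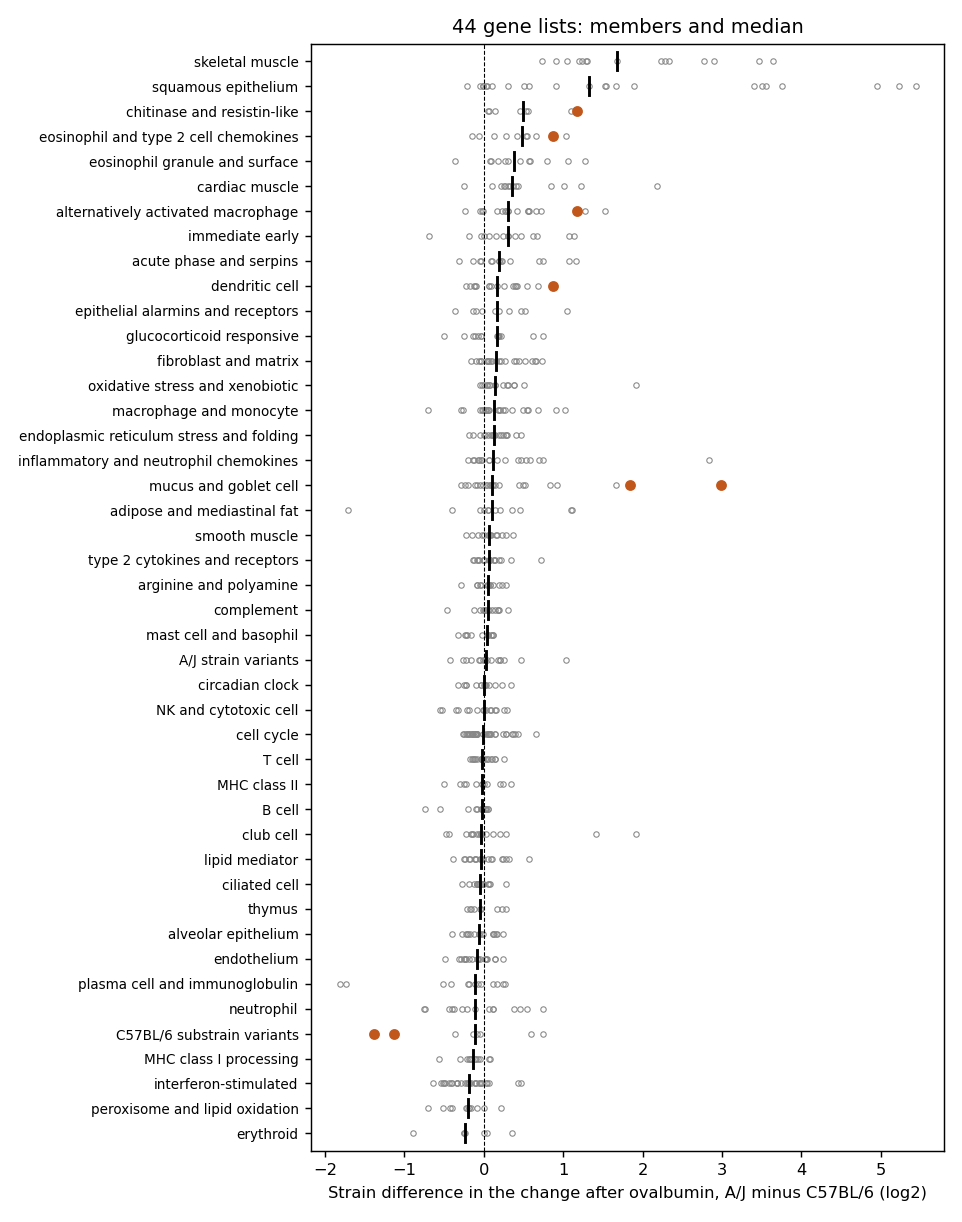
Strain difference in the change after ovalbumin, A/J minus C57BL/6 (horizontal axis, log2), for the measured members of 44 gene lists (rows), with called genes filled, others open and a black bar at each list's median. The medians over all arrays of skeletal muscle, 1.68 (-0.78 without the squamous arrays), and squamous epithelium, 1.32, are the farthest from 0, and these lists hold no called gene. The fit behind -0.78 kept A/J PBS array 3, with a high skeletal muscle mean of 7.47. Some called genes, such as Fxyd4 and Wfdc17, belong to no list. Those that do sit in lists whose medians lie between -0.11 and 0.49.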

How the data were processed

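Per the submitters' processing notes the authors made the log2 expression values with RMA in the affy package, a method that subtracts background, quantile-normalizes the arrays and reduces the probes of a set to 1 value. The notes used here give no version. The deposited log2 values of all 18 arrays (Affymetrix whole-genome mouse arrays) run from 2.00 to 14.03, with array medians of 4.77 to 4.80. Quantile normalization sets all arrays to 1 distribution, so a shift of most genes at once would not show. Arrays of a group correlated at r = 0.987 to 0.997 across probe sets, no 2 arrays were identical, and no scan date or batch was given. The number of arrays, 3 per group, limits the precision.

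After 64 control probe sets were dropped, 45037 were fitted as 6 group means with limma 3.58.1 in R 4.3.3 (lmFit and eBayes, 12 residual and 4.30 prior degrees of freedom). Tests were two-sided, adjusted by Benjamini-Hochberg over all of them and called at an adjusted p under 0.05. All 18 arrays share 1 estimate of the spread, with no filter on low values. Errors are standard errors of a difference and intervals are 95%. GEO's platform annotation gives 34945 probe sets 1 gene, 932 several and 9160 none, and 34741 of the 34945 matched a RefSeq entry. A gene is represented by its probe set with the highest mean.

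Named genes are the called genes with the largest strain difference, up to 3 called members of each list or, where none was called, up to 2 with the largest difference, and a fixed set of response genes. The other probe sets of called genes, Tff1, Ide, Dock2, Mmrn1, Spdef, Slc5a1, Col1a1 and Cd209e fall outside that rule and were chosen after their values were seen. The 44 lists (714 of 784 entries measured) and all members were chosen with earlier results of these data known. P-values measure the spread between these samples. The script was tested on simulated data. Alternatives were the 12 arrays alone, a replicate block, a level filter, eBayes with trend and robust, cyclic loess, median centring, array weights, the squamous list mean as a covariate, leaving out the 8 arrays with squamous transcripts, the mean of a gene's probe sets, and leaving out each array.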

Additional observations from a re-analysis of the deposited data

Results flagged for a closer look

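The difference between the strains in the change from PBS to ovalbumin passed its own test for 21 probe sets. In 12 of the 21 the C57BL/6 PBS arrays stood apart from all other arrays, and origin and treatment cannot be told apart in that group. Itln1 and the Nrp1 probe set are among these 12. The strain differences, A/J minus C57BL/6 on the log2 scale, were 2.98 for Itln1, 1.84 for Guca2a, 1.50 for Fxyd4, 1.43 for Wfdc17, 1.29 for Capn9, 1.18 for Chil3 and 0.87 for Ccl22. Lrmda had 1.46 and 1.44 in 2 probe sets. The probe set shared by Chil3 and Chil4 had 1.28, that of Entpd4 and Entpd4b 0.79, the pair annotated to several predicted genes 1.86 and 1.61, and the one with no annotated gene 1.28.

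The negative differences were -1.38 and -1.48 for Nnt, -1.13, -1.66 and -2.19 for Wdfy1, -0.93 for Efcab7 and -0.69 for Nrp1. In all 21 the 9 differences between an ovalbumin and a PBS array of A/J lay wholly above or wholly below the 9 of C57BL/6, where 2.43% of all probe sets did so, and the same contrast chose them.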

How the results depend on the processing

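All 21 called probe sets kept their direction under every alternative run. The count of 21 was 27 with the 12 arrays alone, 27 with cyclic loess, 23 with median centring, 29 with array weights, 21 with the squamous covariate (19 shared) and 36 with trend and robust eBayes (21 shared). It was 17 among probe sets at or above the median level, where 52.9% of the calls were larger in A/J against 66.7%. Scaling moved the median of all probe sets from -0.01 to 0.0048 or -0.0028. Without the 8 arrays with squamous transcripts the counts were 3 for the strain difference, 120 for ovalbumin in A/J, 141 for ovalbumin in C57BL/6, 1442 for the strains with PBS and 1347 with ovalbumin, and fewer arrays entered that fit. Leaving out 1 array at a time gave 16 to 23, 680 to 1495, 260 to 527, 2941 to 3922 and 3184 to 4033. With the 12 arrays alone Ccl22, Fxyd4, the unannotated probe set and the Nrp1 probe set lost their call.

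The labels do not say that a replicate number marks a shared batch, and the numbers were not taken to pair the mice. Residuals of arrays with the same number correlated from -0.35 to 0.61 over 18 pairs, 14 of them above 0.1, and 5 of the 8 arrays with squamous transcripts were number 1. With a replicate block the counts were 18, 1285, 444, 3861 and 3958, and Ccl22, Fxyd4 and Capn9 had an adjusted p of 0.090 each. The squamous covariate ended the call of Capn9 (adjusted p = 0.068) and of the unannotated probe set (adjusted p = 0.077).

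The gene lists were also counted without the 8 arrays, an alternative chosen after seeing the data. The sign turned in 21 of 99 named genes, none of them called. Without the 8 arrays it turned for Myh1 (-0.78), Myh8 (-0.052), Hpx (-0.16), Alox15 (-0.20), Il33 (-0.067), Cdc6 (-0.16), Actg2 (-0.028), Per2 (-0.082), Cfi (-0.017), Il4 (-0.069), Il5 (-0.088), Chil4 (-0.67), Mki67 (-0.28), Agr2 (-0.52), Tap1 (0.14) and Slc4a1 (0.24). With the squamous covariate it turned for Myh1 (-0.25), Myh8 (-0.36) and Myl3 (-0.060), and with the mean of a gene's probe sets for Agr2 (-0.089) and Clca1 (0.22). Leaving out 1 array gave -0.11 to 1.63 for Apoa2, -0.20 to 0.37 for Chil4, -0.042 to 0.23 for Mki67, -0.20 to 0.15 for Agr2, -0.26 to 0.051 for Muc5ac, -0.82 to 0.40 for Clca1 and -0.75 to 0.058 for Cma1. A/J PBS array 3, with Myh1 at 9.22, was not among the 8 arrays left out. The cause of the turned signs was not tested. With 3 arrays per group the median 95% half-width was 0.28, so smaller strain differences lie within the error of most probe sets.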
